A study of Mus musculus with 6 samples.

Results

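The genes that build caveolae were followed in the pressure-loaded mouse left ventricle: the caveolins Cav1, Cav2 and Cav3, the cavins Cavin1, Cavin2, Cavin3 and Cavin4, and the membrane ATPase Ehd2. The 8 genes were taken by symbol from a deposited table of 24602 genes, and all 8 were present. Poly(A) RNA had been sequenced from 3 left ventricle samples labelled sham and 3 labelled TAC (transverse aortic coarctation, a narrowing of the aorta that makes the left ventricle pump against a higher pressure), 5 weeks after surgery. All 6 libraries came from wild-type mice. Strain, sex and age were not given in the sources used here. Sample labels carry numbers without saying that each was a separate mouse, so every p-value reflects the scatter among the 6 samples alone, and that scatter may be technical.

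Caveolae are flask-shaped pits of the plasma membrane. Caveolins are inserted in the inner leaflet and bind cholesterol, cavins form a coat around the bulb, and EHD2 sits at the neck, where it holds the pit at the cell surface. Caveolin-1 and caveolin-2 are abundant in endothelial cells, adipocytes, smooth muscle and fibroblasts, whereas caveolin-3 and cavin-4 are the muscle forms. Caveolae flatten when a membrane is stretched, and in the heart they hold receptors and channels.

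Of these genes, Cav1 and Cavin4 rose in TAC, by 1.05 ± 0.21 and 0.87 ± 0.16 on the log2 scale (SE, n = 3 each). With GC and length trends removed, Cav1 had 0.57 ± 0.17 and did not pass (edgeR adjusted p = 0.0918), while Cavin4 did. No gene of the 8 fell by the test, and 6 did not pass it. Cav3, the muscle caveolin, was lower in every TAC library than in every sham library, but its adjusted p was 0.104. In FPKM 25.4% of all tested genes were lower without overlap as well. Calls came from edgeR's quasi-likelihood test on deposited estimated counts, at a Benjamini-Hochberg adjusted p under 0.05 over the 8795 genes whose mean FPKM was at least 1. By that rule 6.99% of all tested genes were called, 4.71% as higher and 2.29% as lower in TAC. All 8 genes passed the filter on low values. FPKM, fragments scaled to transcript length and to library size, are used below as levels. Fold changes come from counts scaled by TMM, a trimmed mean of ratios between libraries.

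Library totals ran from 64023153 to 69992502 estimated counts. Scaled by totals alone, fold changes had a median of -0.14 (log2) over all tested genes, against -0.01 with TMM. Scaled by totals the calls were 157 higher and 188 lower, and limma on log2(FPKM + 1) gave 174 and 338, against 414 higher and 201 lower with TMM. FPKM carry that same shift, so an FPKM ratio of TAC to sham reads lower than the fitted fold change. Markers of ventricular cardiomyocytes summed to between 26603 and 30558 FPKM in sham and between 19050 and 23975 FPKM in TAC. They were the most abundant of the marker lists in every library, and of the 10, all tested, none was called.

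In sham hearts the highest levels per length were those of Cav3 at 88.4 ± 15.5 FPKM and Cavin1 at 85.2 ± 6.45 FPKM (SD, n = 3), which differed by less than their spread. Ehd2 followed at 46.2 ± 4.67 FPKM. Cavin4 at 17.5 ± 2.73 and Cavin3 at 17.3 ± 2.83 FPKM differed by less than their spread as well. Below them stood Cav1 at 12.3 ± 2.18 FPKM, Cavin2 at 4.08 ± 1.22 FPKM and Cav2 at 0.946 ± 0.644 FPKM. In TAC the order was Cavin1 (78.9 ± 11.0 FPKM), Cav3 (51.8 ± 9.86), Ehd2 (42.4 ± 6.26), Cavin4 (29.0 ± 4.405), Cav1 (22.9 ± 4.17), Cavin3 (19.7 ± 3.09), Cavin2 (6.39 ± 0.564) and Cav2 (2.68 ± 0.0768). In TAC the ranges of Cav3 and Ehd2, of Cavin4 and Cav1, and of Cav1 and Cavin3 overlapped. The plot of levels by library shows each value.

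**Figure D1:**
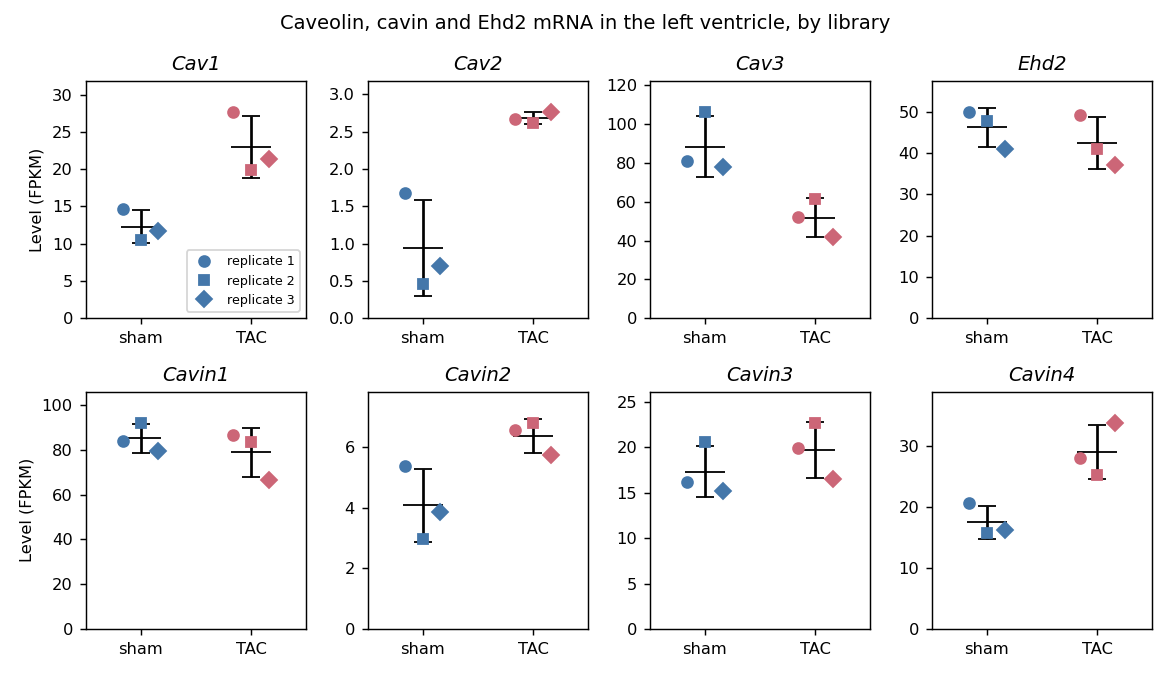
Level of each gene in FPKM (vertical axes, each from 0) in the 3 sham and 3 TAC libraries; points are libraries, with a marker shape for each replicate number, and black bars are the mean ± SD. The TAC points lie above all sham points for Cav1, Cav2, Cavin2 and Cavin4, below them for Cav3, and among them for Ehd2, Cavin1 and Cavin3.

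Sham and TAC libraries did not overlap in FPKM for 5 of the 8 genes, of which 4 were higher and 1, Cav3, was lower in TAC. Over all tested genes 36.9% did not overlap, 11.6% higher and 25.4% lower. The 250 bases before the annotated start are shown for those 5 genes. They are RefSeq promoter windows on GRCm38.p6, all on the plus strand and written 5′ to 3′, at chr6:17306085-17306334 (Cav1), chr6:17280935-17281184 (Cav2), chr6:112459255-112459504 (Cav3), chr1:51288876-51289125 (Cavin2) and chr4:48663264-48663513 (Cavin4). None overlaps an exon of the GENCODE M21 annotation. Capitals mark matches, on either strand, to the E-box CANNTG, the Sp1 motif GGGCGG or the TATA motif TATAAA.
Cav1: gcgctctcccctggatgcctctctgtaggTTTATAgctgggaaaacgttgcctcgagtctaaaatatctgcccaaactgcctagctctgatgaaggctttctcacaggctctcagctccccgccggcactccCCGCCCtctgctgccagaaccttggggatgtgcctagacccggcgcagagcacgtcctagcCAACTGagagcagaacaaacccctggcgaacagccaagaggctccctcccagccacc
Cav2: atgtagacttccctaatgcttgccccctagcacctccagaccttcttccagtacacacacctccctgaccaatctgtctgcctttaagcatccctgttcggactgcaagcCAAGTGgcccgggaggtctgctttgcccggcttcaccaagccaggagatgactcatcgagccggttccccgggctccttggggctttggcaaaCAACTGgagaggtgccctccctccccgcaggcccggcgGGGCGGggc
Cav3: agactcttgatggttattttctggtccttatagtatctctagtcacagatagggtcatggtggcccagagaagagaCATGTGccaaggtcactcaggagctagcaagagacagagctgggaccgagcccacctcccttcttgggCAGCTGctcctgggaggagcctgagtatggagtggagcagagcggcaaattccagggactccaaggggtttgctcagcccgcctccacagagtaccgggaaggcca
Cavin2: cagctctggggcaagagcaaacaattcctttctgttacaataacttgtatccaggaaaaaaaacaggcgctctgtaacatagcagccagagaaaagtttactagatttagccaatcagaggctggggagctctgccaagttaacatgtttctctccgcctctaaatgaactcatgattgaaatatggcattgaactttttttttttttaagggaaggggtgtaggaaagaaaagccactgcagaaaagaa
Cavin4: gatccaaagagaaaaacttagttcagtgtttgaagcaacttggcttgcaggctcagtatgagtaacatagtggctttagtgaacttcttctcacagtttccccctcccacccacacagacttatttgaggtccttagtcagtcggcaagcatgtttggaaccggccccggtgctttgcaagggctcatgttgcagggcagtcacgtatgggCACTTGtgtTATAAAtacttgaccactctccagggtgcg
An E-box was present once before Cav1 and Cavin4, at 2 places each before Cav2 and Cav3, and not before Cavin2. Among 32851 RefSeq windows of this length 66.2% held an E-box, 32.7% the Sp1 motif and 12.4% the TATA motif. The Cavin4 window held TATAAA from base -30 to base -25, counted back from the start. Its E-box ended 3 bases before that. Cav1 held TATAAA on the minus strand from base -221 to -216. The Sp1 motif lay before Cav1 on the minus strand (-118 to -113) and before Cav2 on the plus strand (-9 to -4). The M-CAT motif CATTCC, the GATA motif AGATAA, the CArG box and the MEF2 motif were also searched on both strands and matched none of the 5 windows. They were present in 12.6%, 9.99%, 1.47% and 2.92% of all windows. GC content of the 5 windows was 59.6% before Cav1, 62.0% before Cav2, 56.0% before Cav3, 40.4% before Cavin2 and 48.8% before Cavin4, with a median of 52.4% over all windows.

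Among the caveolins, Cav1 encodes the scaffold without which non-muscle cells form no caveolae. Its gene spans bases 17306335 to 17341324 of chromosome 6 on the plus strand (GRCm38, ENSMUSG00000007655). It measured 14.7, 10.5 and 11.7 FPKM in sham replicates 1, 2 and 3 and 27.7, 19.8 and 21.3 FPKM in TAC replicates 1, 2 and 3. Every TAC library was above every sham library, with TAC replicate 1 the highest. Scaled counts went from 43.0 ± 8.58 to 89.1 ± 19.8 CPM, a fitted change of 2.07-fold (log2 fold change 1.05 ± 0.21, edgeR adjusted p = 0.0301). The call was lost without sham replicate 2 or 3 (edgeR adjusted p = 0.133 and 0.0978) and without TAC replicate 1 or 2 (0.0945 and 0.0561). The log2 fold change stayed between 0.85 and 1.24 whichever library was left out.

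Cav2, which encodes the partner that oligomerizes with caveolin-1, lies 17.2 kb before Cav1 on the same strand, at bases 17281185 to 17289115 of chromosome 6 (ENSMUSG00000000058). Its level was low, at 1.68, 0.464 and 0.696 FPKM in sham and 2.67, 2.61 and 2.76 FPKM in TAC. These levels rested on 397, 108 and 157 estimated counts for the sham libraries, and on 600, 647 and 676 for the TAC libraries. The TAC libraries lay close together above the sham libraries, which were spread widely, with replicate 1 the highest. The fitted change was 1.63 ± 0.43 on the log2 scale and did not pass (edgeR adjusted p = 0.0591). It passed without sham replicate 1 (log2 fold change 2.38, edgeR adjusted p = 0.0329) and without TAC replicate 3 (1.67, adjusted p = 0.0377).

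Cav3 encodes the muscle caveolin of the surface membrane and T-tubules and lies at bases 112459505 to 112472872 of chromosome 6 on the plus strand (ENSMUSG00000062694). It measured 80.9, 106 and 78.0 FPKM in sham and 52.3, 61.4 and 41.7 FPKM in TAC. No TAC library reached the lowest sham library. Sham replicate 2 was the highest of all and TAC replicate 3 the lowest. Scaled counts were 103 ± 15.4 CPM in sham and 67.9 ± 17.1 CPM in TAC, with a log2 fold change of -0.60 ± 0.21 (edgeR adjusted p = 0.104). In 17 alternative fits the log2 fold change lay between -0.78 and -0.42 and none passed. The lowest adjusted p among them was 0.0513.

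Cavin-1 is the coat protein needed for caveolae in all tissues, and Cavin1 lies at bases 100956733 to 100970887 of chromosome 11 on the minus strand (ENSMUSG00000004044). Its level was 83.9, 92.2 and 79.6 FPKM in sham and 86.9, 83.4 and 66.4 FPKM in TAC. Both groups overlapped, and only TAC replicate 3 lay outside the sham range. The log2 fold change was 0.05 ± 0.17 (edgeR adjusted p = 0.881), and its sign was negative in 6 of 17 alternatives, among them scaling by library totals.

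Cavin4, also called MURC, encodes the muscle-restricted cavin, which associates with caveolin-3 in muscle. It lies at bases 48663514 to 48673502 of chromosome 4 on the plus strand (ENSMUSG00000028348). It measured 20.7, 15.7 and 16.2 FPKM in sham and 28.1, 25.2 and 33.8 FPKM in TAC. All TAC libraries were above all sham libraries, with TAC replicate 3 the highest. Scaled counts went from 36.5 ± 6.43 to 66.5 ± 5.43 CPM, a fitted change of 1.82-fold (log2 fold change 0.87 ± 0.16, edgeR adjusted p = 0.0278). The call was lost without sham replicate 2 or 3 (edgeR adjusted p = 0.125 and 0.0945) and without TAC replicate 1 or 2 (0.0922 and 0.0547), with log2 fold changes of 0.77 to 1.04 over the 6 fits.

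Cavin2 encodes the cavin that helps curve the membrane and lies at bases 51289126 to 51302960 of chromosome 1 on the plus strand (ENSMUSG00000045954). It measured 5.39, 2.98 and 3.88 FPKM in sham and 6.59, 6.82 and 5.75 FPKM in TAC. The TAC libraries were above the sham libraries, by a narrow gap between sham replicate 1 and TAC replicate 3. The log2 fold change was 0.79 ± 0.25 and did not pass (edgeR adjusted p = 0.0833). Without TAC replicate 3 it was 0.92 and passed (edgeR adjusted p = 0.0338).

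Cavin3, whose product binds cavin-1 and protein kinase C delta, lies at bases 105480083 to 105482300 of chromosome 7 on the minus strand (ENSMUSG00000037060). It measured 16.2, 20.6 and 15.2 FPKM in sham and 19.9, 22.7 and 16.6 FPKM in TAC, and both groups overlapped. The log2 fold change was 0.35 ± 0.19 (edgeR adjusted p = 0.281), and 0.51 without TAC replicate 3 (edgeR adjusted p = 0.0455). Of its exonic bases 22.5% overlap the record Gm45667 on the other strand. The strand setting of the counting was not given in the sources used here, so reads of both cannot be told apart.

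Ehd2, at bases 15946958 to 15967567 of chromosome 7 on the minus strand (ENSMUSG00000074364), measured 49.9, 47.7 and 40.9 FPKM in sham and 49.3, 41.0 and 37.0 FPKM in TAC. The groups overlapped. The log2 fold change was 0.04 ± 0.18 (edgeR adjusted p = 0.918), with a negative sign in 6 of 17 alternatives. Apart from Cavin3, the exons of these genes overlapped no record of another gene. The deposited FPKM of Cav1 corresponded to a length of 3445 to 3448 bases in every library, close to the 3444 bases of all its annotated exons together. A shift between its 8 listed transcripts therefore cannot be read from these values.

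Counted over the 8 genes, the libraries did not overlap in FPKM for 5, with 4 higher and 1 lower in TAC. Over all tested genes 36.9% had groups that did not overlap, 11.6% higher and 25.4% lower in TAC. On TMM-scaled CPM the same count was 5 of 8, beside 34.8% of all genes (17.7% higher, 17.1% lower). The unadjusted p was under 0.05 for 5 of the 8 genes, beside 28.1% of all tested genes. Their median log2 fold change was 0.57, against -0.01 over all tested genes. The calls depended on the fit. DESeq2 called 4 of the 8 genes (Cav1, Cav2, Cavin2 and Cavin4), beside 18.8% of all genes. Each limma fit called 3 (Cav1, Cav2 and Cavin4), beside 5.82% and 5.75%. With DESeq2's size factors inside edgeR, or scaling without the mitochondrial chromosome, Cav1 and Cavin4 were called as before, beside 7.29% and 7.17%. They were also called among genes with a mean FPKM of at least 5, beside 4.71%. Cav1 alone was called on library totals (beside 3.92%) and with the replicate number as a block (2.08%). No gene of the 8 was called without a filter (beside 1.2%) or with the block and GC and length trends removed (1.98%). Without sham replicate 1 there were 3 calls (4.1%) and without TAC replicate 3 there were 5 (19.4%). Leaving out sham replicate 2, sham replicate 3, TAC replicate 1 or TAC replicate 2 gave 0 calls, beside 0.136%, 0.58%, 0.58% and 1.51% of all genes. The plot of fitted differences shows Cav2, Cav1, Cavin4 and Cavin2 in that order from the top.

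**Figure D2:**
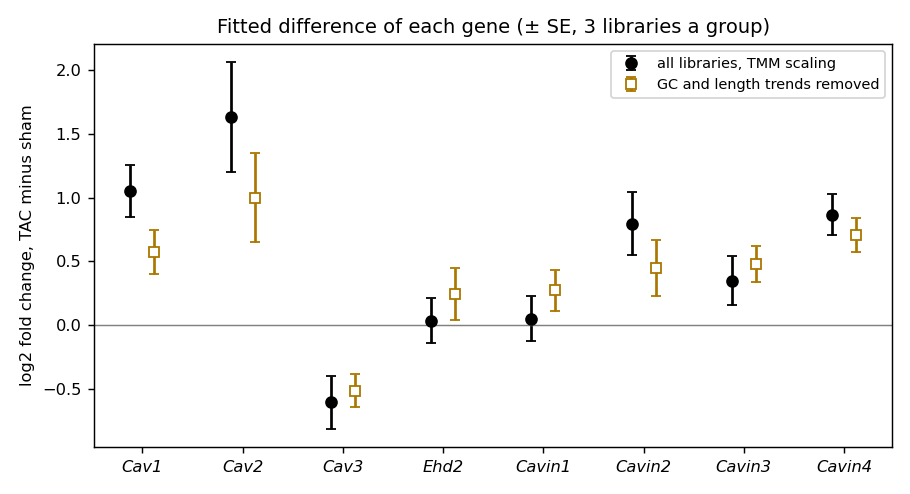
Log2 fold change of TAC minus sham for each gene (vertical axis), ± SE, from 3 libraries a group. Filled circles are the fit with TMM scaling and open squares the fit after removal of GC and length trends; Cav1 went from 1.05 to 0.57, Cav2 from 1.63 to 1.001 and Cavin4 from 0.87 to 0.71, while Cav3 stayed near -0.60 and -0.51.

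GC content moved with the comparison over the whole table and beside these genes. Among the 1758 tested genes of lowest GC content (up to 46.7%) the median log2 fold change was 0.47 and 16.3% were called higher. Among the 1758 of highest GC content (from 56.6%) the median was -0.17 and 1.14% were called higher. The longest transcripts of the 4 genes that were higher without overlap were the poorest in G and C of the 8, at 37.5% for Cav2, 42.6% for Cav1, 44.4% for Cavin2 and 47.8% for Cavin4. The other 4 were at 54.5% (Ehd2), 56.4% (Cavin3), 56.6% (Cav3) and 57.3% (Cavin1). When each library's trend over GC content and length was removed, Cavin4 still rose (log2 fold change 0.71 ± 0.13, edgeR adjusted p = 0.0304). Cav1 kept a positive change of 0.57 ± 0.17 but, as given above, did not pass (edgeR adjusted p = 0.0918). Cav2 had 1.001 ± 0.35 (adjusted p = 0.128) and Cavin2 0.45 ± 0.22 (adjusted p = 0.240). Cav3 had -0.51 ± 0.13 (adjusted p = 0.0626), Cavin3 0.48 ± 0.14 (adjusted p = 0.0894), Cavin1 0.27 ± 0.16 (adjusted p = 0.325) and Ehd2 0.24 ± 0.20 (adjusted p = 0.488). In that fit 1 of the 8 genes was called, beside 5.24% of all tested genes (2.75% higher, 2.49% lower).

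**Figure D3:**
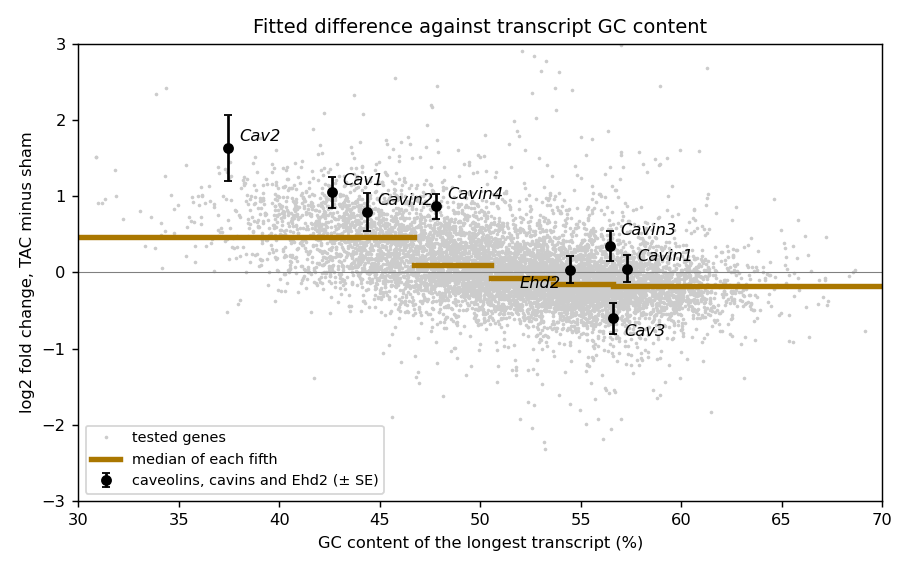
Log2 fold change of TAC minus sham (vertical axis) against GC content of the longest transcript (horizontal axis, %) for 8773 tested genes in grey; 17 genes lie outside the axes and 5 have no GC value. Brown lines are medians of 5 equal groups of genes by GC content, falling from 0.47 to -0.17, and black points are the 8 genes ± SE, of which Cav2, Cav1, Cavin2 and Cavin4 lie at the lower GC contents and above 0.

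Ratios within a library do not depend on how libraries are scaled. The FPKM ratio of Cav3 to Cav1 was 5.50, 10.1 and 6.68 in sham and 1.89, 3.09 and 1.96 in TAC. The ratio was lower in every TAC library than in every sham library. On the log2 scale it went from 2.85 ± 0.45 to 1.17 ± 0.40, a difference of -1.68 (exact 2-sided permutation test, p = 0.1, the smallest that 3 against 3 can give). With GC and length trends removed the difference was -1.07, and the exact permutation p was again 0.1. Cav3 held 83.2%, 90.7% and 86.3% of summed caveolin FPKM in sham and 63.3%, 73.2% and 63.4% in TAC (exact permutation p = 0.1). Cav1 held 12.3 ± 3.13% of the sum in sham libraries and 29.8 ± 5.38% in TAC libraries (SD, n = 3), and Cav2 held 0.964 ± 0.685% and 3.52 ± 0.599%.

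Cavins were set against each other in the same manner. The ratio of the muscle form Cavin4 to Cavin2 was 3.83, 5.27 and 4.17 in sham and 4.26, 3.69 and 5.88 in TAC. The groups overlapped (log2 difference 0.05, exact 2-sided permutation p = 0.9). Cavin1 held 68.6 ± 1.91% of summed cavin FPKM in sham and 58.7 ± 3.92% in TAC, and Cavin4 held 14.1 ± 2.21% and 21.9 ± 5.02%. These shares, and the ratios that follow, were not computed with GC and length trends removed. With the trends removed, the log2 fold change went from 0.05 to 0.27 for Cavin1 and from 0.87 to 0.71 for Cavin4. For the 2 muscle forms, the FPKM ratio of Cavin4 to Cav3 was 0.255, 0.148 and 0.208 in sham and 0.536, 0.410 and 0.812 in TAC, without overlap. Summed caveolin FPKM lay between 90.4 and 117 in sham and between 65.7 and 83.8 in TAC, whereas summed cavin FPKM lay between 115 and 131.5 in sham and between 123 and 141 in TAC. Cavin FPKM per caveolin FPKM was thus 1.23 ± 0.0941 in sham and 1.74 ± 0.111 in TAC, without overlap.

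**Figure D4:**
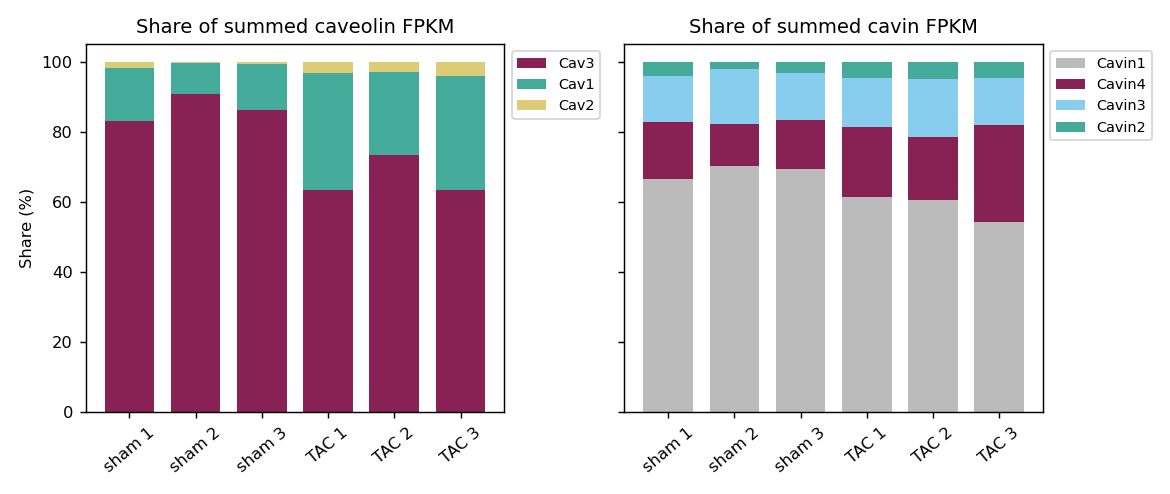
Share of summed FPKM (vertical axis, %) held by each caveolin (left) and each cavin (right) in the 6 libraries, one stacked bar per library. Cav3 holds between 83.2% and 90.7% of the caveolins in sham and between 63.3% and 73.2% in TAC; Cavin1 is the largest cavin in all 6 libraries.

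In bulk tissue fewer cells of a type and less RNA per cell cannot be told apart. Markers of the cells that express these genes were set beside them. The markers come from the same bulk RNA, so they cannot separate cell number from RNA per cell either. Of 10 endothelial markers Tek was called higher, the median log2 fold change was 0.27, and they summed to between 295 and 306 FPKM in sham and between 232 and 362 FPKM in TAC. Relative to the mean log2(FPKM + 1) of that list, Cav1 stood at -0.57, -0.89 and -0.75 in sham and 0.04, -0.44 and 0.17 in TAC, again without overlap. Cavin2 relative to it overlapped between groups, at -1.86, -2.42 and -2.13 in sham and -1.87, -1.86 and -1.55 in TAC. Both differences used FPKM with the GC and length trends still present. With those trends removed, the median log2 fold change of the endothelial list was 0.35, beside 0.57 for Cav1 and 0.45 for Cavin2. Of 8 fibroblast markers Dcn and Lum were called higher, the median log2 fold change was 0.86, and they summed to between 64.7 and 88.1 FPKM in sham and between 80.2 and 225 FPKM in TAC. Their mean log2(FPKM + 1) was 3.18, 2.94 and 2.83 in sham and 3.23, 3.04 and 4.33 in TAC, with TAC replicate 3 far above the others. Neither Dcn nor Lum passed with GC and length trends removed (edgeR adjusted p = 0.0951 and 0.102). Of 5 tested smooth muscle markers 1 was called higher, and their median log2 fold change was 0.54. With GC and length trends removed that marker still passed (1.75, edgeR adjusted p = 0.0183), and the median was 0.59. Smooth muscle markers summed to between 101 and 142 FPKM in sham and between 82.4 and 127 FPKM in TAC. Rgs5 was called higher among 6 pericyte markers (64.8 to 68.4 FPKM in sham, 58.3 to 72.0 in TAC, median log2 fold change -0.15). Rgs5 had a log2 fold change of 1.05, and of 0.51 with GC and length trends removed, when it did not pass (edgeR adjusted p = 0.111). The part of fibroblasts, smooth muscle and pericytes in the change of Cav1 was not tested. Adipocyte markers were near 0, summing to between 0.709 and 6.14 FPKM in sham and between 0.896 and 1.87 FPKM in TAC over the 5 measured. None of the markers of these lists was at 0 in all libraries.

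Against cardiomyocyte markers, Cav3 was lower and Cavin4 higher in every TAC library than in every sham library. The log2(FPKM + 1) of Cav3 minus the mean of 10 ventricular cardiomyocyte markers was -3.13, -2.73 and -3.23 in sham and -3.60, -3.36 and -3.92 in TAC. For Cavin4 the same difference was -5.05, -5.41 and -5.43 in sham and -4.47, -4.61 and -4.21 in TAC. These differences, too, used FPKM with the GC and length trends present. In the main fit the median log2 fold change of the 10 markers was -0.07, beside -0.60 for Cav3 and 0.87 for Cavin4. With the trends removed it was -0.21, beside -0.51 for Cav3 and 0.71 for Cavin4. Macrophage, atrial, blood, skeletal muscle and mesothelial markers were also counted. Of these 5 lists, Nppa among 4 tested atrial markers was the 1 called gene, at 481 to 1042 FPKM in sham and 1229 to 2901 FPKM in TAC. The other 3 tested atrial markers, Sln, Myl7 and Myl4, had log2 fold changes of -1.45, -1.04 and -1.28 and did not pass, and the median of the 4 was -1.16. Blood markers summed to between 617 and 1921 FPKM in sham and between 1252 and 2588 FPKM in TAC, and their part in these results was not tested.

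Other genes of the caveola and its surroundings were read from lists drawn up by known function. Of 5 tested genes that act at the neck and bend membranes, none passed (median log2 fold change 0.03). Ehd4 measured 95.0, 77.6 and 93.9 FPKM in sham and 68.4, 64.6 and 152.5 FPKM in TAC, where TAC replicate 3 stood far above the others (log2 fold change 0.21 ± 0.28, and -0.21 without that library). Ehd1, a relative of Ehd2 in endosomal recycling, had -0.29 ± 0.16 (edgeR adjusted p = 0.274). Of 7 tested flotillin and raft scaffold genes Mal, a raft proteolipid, rose (log2 fold change 1.27 ± 0.23, adjusted p = 0.0260) and 6 did not pass (median 0.08). Mal measured 1.96, 1.496 and 1.68 FPKM in sham and 2.82, 3.44 and 5.09 FPKM in TAC.

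None of 15 tested receptors, enzymes and channels described in caveolae passed (median -0.19). Gnai2, an inhibitory G protein subunit, had 0.10 ± 0.12 (edgeR adjusted p = 0.665). Of 8 T-tubule and membrane repair genes Popdc3, a cyclic AMP-binding Popeye protein gene, rose (log2 fold change 0.72 ± 0.16, edgeR adjusted p = 0.0387) and 7 did not pass (median -0.12). Popdc3 measured 8.42, 7.28 and 8.35 FPKM in sham and 10.3, 12.8 and 12.7 FPKM in TAC.

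Adra1b, an alpha1-adrenergic receptor gene described with cavin-4, fell by 1.72 ± 0.20 on the log2 scale (edgeR adjusted p = 0.00993). Adra1b measured 18.5, 27.1 and 15.8 FPKM in sham and 5.99, 4.89 and 5.85 FPKM in TAC. Of 14 cholesterol and sphingomyelin supply genes Insig1, a brake on sterol synthesis, rose (log2 fold change 1.21 ± 0.27, edgeR adjusted p = 0.0380) and 13 did not pass, with a median of -0.35. With GC and length trends removed the cholesterol list had 1 gene higher (Insig1) and 1 lower (Npc1, a lysosomal cholesterol exporter), and a median of -0.15. Of 7 endothelial caveola, diaphragm and transcytosis genes the fatty acid receptor gene Cd36 rose (1.22 ± 0.23, edgeR adjusted p = 0.0275) and 6 did not pass (median 0.25). Cd36 did not pass with the trends removed (0.58, edgeR adjusted p = 0.0640). Adra1b passed whichever library was left out (log2 fold change -1.87 to -1.50). The calls of Mal, Popdc3, Insig1 and Cd36 were each lost without sham replicate 2, sham replicate 3 or TAC replicate 1, with edgeR adjusted p between 0.0567 (Mal without TAC replicate 1) and 0.159 (Popdc3 without sham replicate 2). Mal, Popdc3 and Insig1 were also lost without TAC replicate 2 (0.0561, 0.0943 and 0.0589), and Popdc3 and Insig1 without sham replicate 1 (0.0679 and 0.0793). Popdc3 and Insig1 did not pass either in both limma fits, on library totals, without a filter or with the replicate block (adjusted p between 0.0523 and 0.0870), nor did Mal with the block (edgeR adjusted p = 0.0508).

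**Figure D5:**
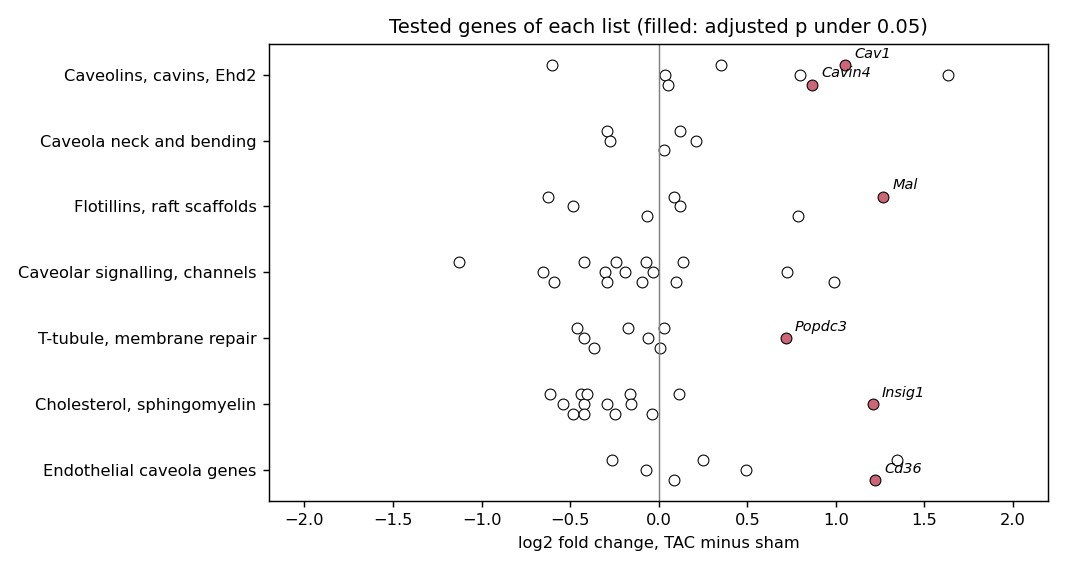
Log2 fold change of TAC minus sham (horizontal axis) of every tested gene in each of 7 groups (rows), the 8 genes first; each point is 1 gene, filled where the edgeR adjusted p was under 0.05 and open otherwise, and the vertical offsets in a row only separate points. Filled points are Cav1, Cavin4, Mal, Popdc3, Insig1 and Cd36, all on the higher side.

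Genes with the most similar profiles over the 6 libraries were taken from the tested genes whose mean FPKM was at least 10, by Pearson correlation of log2(FPKM + 1). These correlations describe 6 libraries that share the group difference and the GC trend. Cav1 was followed most closely by Gm13340, mt-Tl1 and Rpl7 (r = 0.98, 0.98 and 0.97). For Cav2 they were mt-Cytb, mt-Atp8 and Gm28439 (r = 0.99, 0.99 and 0.98), and for Cavin2 mt-Atp6, mt-Nd4 and mt-Cytb (r = 0.98 each). These 3 genes thus had mitochondrially encoded transcripts among their nearest profiles. Cavin4 was nearest to Ankrd1, which encodes a titin-bound stress protein, Eif4a1 and Calm2 (r = 0.98 each). Cav3 was nearest to Ssr2, Rxrb and Usf1 (r = 0.99 each), Cavin1 to Mrpl36, Fam43a and Tubb5 (r = 0.96, 0.96 and 0.95). Cavin3 was nearest to Dbi, Hspb6 and Myl6 (r = 0.97, 0.96 and 0.94), and Ehd2 to Itpkb, Sox18 and Ctnnbip1 (r = 0.93, 0.92 and 0.89).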

How the data were processed

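RNA of 6 mouse left ventricle samples was measured. The authors deposited FPKM and estimated counts per gene, per the file headers. The submitters' processing notes name cutadapt 1.9, StringTie 1.3.4d and HISAT2 2.0.4, and the build GRCm38; the annotation release, filters, strand setting and the making of the count columns were not given in the sources used here. In each library 88.9% to 90.4% of low counts of single-transcript genes were the product of FPKM, length and 1 factor for the library, rounded up (tolerance 0.1), so the deposited estimated counts were treated as derived from coverage; they were already whole numbers.

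The 8795 genes whose mean FPKM was at least 1 were compared with edgeR 4.0.16 (R 4.3.3): TMM, estimateDisp, glmQLFit and glmQLFTest, Benjamini-Hochberg adjustment over all of them. The standard error is the log2 fold change divided by the square root of F, an approximation. Ratios of FPKM were compared by exact 2-sided permutation over samples. GC content and length were those of the longest GENCODE M21 transcript, known for 8790 genes; lowess trends over both (span 0.3, 3 rounds), fitted per library to log2 CPM less the gene's mean, entered as offsets. Alternatives were DESeq2 1.42.0, limma 3.58.1 on log2(FPKM + 1) and log2(FPKM + 0.1), 3 scalings, 2 filters, a replicate block, and leaving out each library. On simulated counts for TAC against sham over 8795 genes, the edgeR test found 60% of 100 genes with a 2-fold change and 98% of 100 with a 4-fold change, with 10 unchanged genes among 168 calls. The simulated counts held no GC or length trend, unlike the libraries, so these rates may not hold for the measured genes.

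The genes and lists were chosen with earlier results of these data known. Named are all 8 genes, per list up to 4 called genes with the lowest adjusted p or otherwise the 2 with the highest mean FPKM, and the 3 most similar profiles per gene; Npc1 and the called cell type markers were named after their values were seen. Results of 1 list and 1 gene that the rule names are not reported here. Promoter windows came from RefSeq (GRCm38.p6) for 7 of the 8 genes; windows were printed where the start matched the deposited gene start.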

Additional observations from a re-analysis of the deposited data

How the results depend on the processing

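Of the 8 genes, Cav1, Cav2, Cav3, Cavin2, Cavin3 and Cavin4 kept their sign in every alternative run (17 each, 16 for Cav2, which is below a mean FPKM of 5). Genes higher and lower in TAC were 414 and 201, and became 1031 and 617 with DESeq2, 174 and 338 with limma on log2(FPKM + 1), 170 and 336 with log2(FPKM + 0.1), 163 and 122 without a filter, and 143 and 68 at a mean FPKM of 5 or more. Higher genes were 157 without TMM and 242 with GC and length trends removed. Leaving out 1 library gave 9 to 813 higher and 3 to 892 lower genes, the fewest without sham replicate 2 and the most without TAC replicate 3, when 5 of the 8 genes were called beside 19.4% of all. With the replicate block there were 141 and 42 genes, and 115 and 59 with the replicate block and trends removed. The labels state no pairing of same-numbered samples, whose deviations from their group means correlated at -0.17, 0.18 and -0.13. Sham replicate 1 correlated best with TAC replicate 3 (0.32). Sham replicates 2 and 3 both correlated best with TAC replicate 2 (0.18 and 0.13). Deviations from a mean are tied together within a group, so these correlations cannot decide whether samples were paired.

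Cav1 did not pass without a filter (log2 fold change 0.96), with trends removed (0.57), or with the replicate block and trends removed (0.56). Cavin4 did not pass without TMM (0.75), without a filter (0.76), with the replicate block (0.88) or with the block and trends removed (0.72). Cav2 passed with DESeq2 (1.64) and limma (0.97 and 1.58), and Cavin2 with DESeq2 (0.80), which called 18.8% of genes. Over fits without 1 library the log2 fold change was 0.85 to 1.24 for Cav1, 1.29 to 2.38 for Cav2, 0.60 to 1.09 for Cavin2, 0.20 to 0.51 for Cavin3, 0.77 to 1.04 for Cavin4, -0.05 to 0.21 for Cavin1 and -0.12 to 0.18 for Ehd2. Cavin1 was -0.12 in both limma fits, -0.093 without TMM, -0.048 without a filter, -0.055 without TAC replicate 1 and -0.02 without TAC replicate 2. Ehd2 was -0.12 and -0.13 with limma, -0.10 without TMM, -0.061 without a filter, -0.04 without sham replicate 3 and -0.12 without TAC replicate 1. The log2 ratio of Cavin4 to Cavin2 differed by -0.05 without sham replicate 1 and -0.14 without TAC replicate 3 (range -0.14 to 0.19 when 1 library was left out). With GC and length trends removed that ratio differed by 0.26 (exact 2-sided permutation p = 0.5). With trends removed the difference was -1.07 for the log2 ratio of Cav3 to Cav1 and -12.9 percentage points for the Cav3 share, against -1.68 and -20.1.

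Gnai2 changed sign with limma (-0.052 and -0.053), without TMM (-0.033) and without a filter (-0.0080), and Ehd4 with limma (-0.012 and -0.013) and without TAC replicate 3 (-0.21; 0.39 without TAC replicate 2). Of 151 values of the 9 named list genes, 112 kept sign and side of the threshold and 32 lost the call. The cause was not tested. Among the 8 genes, the 108 counts of Cav2 in sham replicate 2 were the fewest, and 3 libraries a group limit the precision.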

Other observations

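Genes next to the 8 were read as values. The nearest tested gene beyond Cav1 on chromosome 6, 295 kb away, was Capza2, which encodes an actin-capping subunit. It measured 3.22, 2.45 and 3.20 FPKM in sham and 4.46, 3.86 and 5.07 FPKM in TAC (log2 fold change 0.73 ± 0.17, edgeR adjusted p = 0.0433, from the fit with TMM alone). The nearest tested gene on the other side of the pair Cav2 and Cav1 was 3410 kb away, 2610001J05Rik, with a log2 fold change of 0.05 ± 0.15.

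The record Gm12439 begins 1.65 kb after the end of Cavin4. It measured 3.79, 3.89 and 3.96 FPKM in sham and 6.51, 8.03 and 2.80 FPKM in TAC, so that 2 TAC libraries lay above all sham libraries and TAC replicate 3, the highest for Cavin4, lay below them (log2 fold change 0.75 ± 0.41, edgeR adjusted p = 0.264). Beside Cav3 lay Ssu2 at 71.5 kb and Gm15519 at 90.8 kb, with log2 fold changes of -0.56 ± 0.27 and -0.72 ± 0.27 (edgeR adjusted p = 0.212 and 0.130).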
